A study of Mus musculus with 6 samples.

Results

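The potassium channel genes of the mouse heart were followed in HIF-PPN hearts, in which an oxygen-stable HIF1α is switched on in cardiomyocytes. The members were the rows of the deposited gene table whose symbol starts with Kcn, the root shared by most genes for potassium channel subunits. They numbered 97 of 23537 gene symbols: 77 encode pore-forming subunits, 16 accessory subunits, 3 are non-coding RNAs and 1, Kcnrg, encodes a regulator. RNA was sequenced from heart ventricles of C57BL/6-FVB males aged 6 to 8 weeks, with 3 mice in each group. Every mouse, controls included, carried both transgenes: the tetracycline transactivator (tTA) under the αMHC promoter, which is active in cardiomyocytes, and HIF-PPN behind a tetracycline-response element. HIF-PPN is a HIF1α with prolines and an asparagine replaced by alanine, 3 substitutions in all, so that it is not degraded in normal oxygen, and it ends in an HA tag. All mice drank doxycycline in sucrose-water from conception, which keeps the transgene off. Control mice stayed on doxycycline, and HIF-PPN mice were studied 3 days after it was removed. The groups therefore differ in the drug as well as in the transgene, and the effects of both cannot be told apart.

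Potassium channels carry the outward currents that end the cardiac action potential and hold the resting potential of the cardiomyocyte. Pore-forming subunits of the Kcna, Kcnd, Kcnh and Kcnq families open on depolarization, Kcnj subunits are inward rectifiers, Kcnk subunits are leak channels with a pair of pore domains, and Kcnn subunits open on calcium. Accessory subunits such as Kcnip2 and Kcne1 form no pore, and instead change how many channels reach the membrane and how fast they open and close. In the mouse ventricle, repolarization relies mostly on the transient outward current (Ito) and on slowly inactivating delayed rectifiers, whereas larger mammals rely more on the delayed rectifiers named IKr and IKs.

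Values are FPKM, fragments counted per length of exon and scaled to the mapped fragments of the group, a scale on which levels of different genes can be set side by side. The table holds 1 value per gene and group, already merged over the 3 mice. No spread between mice, test or p-value could therefore be given here, and these values cannot tell whether any difference exceeds that spread. The paper did test these groups for differential expression, and reports genes that were higher and genes that were lower with HIF-PPN. It links the lower genes to ion transport and cardiac conduction, among other terms. The outcome of that test for single Kcn genes is not given here. Read counts are not in the values, and the depth is unknown. Differences are given as log2 of HIF-PPN over control FPKM. The ventricular markers Myl2 (12804 FPKM in controls and 12096 FPKM with HIF-PPN) and Tnnt2 (3064 and 2982 FPKM) were high in both groups, as the label of ventricle calls for, while atrial markers were also present, among them Nppa at 1235 and 875 FPKM. The Hif1a row read 35.3 FPKM in controls and 25.9 FPKM with HIF-PPN. Whether transgene reads were counted there is not given in the sources used here, so that row does not check the group labels. Gapdh, which every cell uses, was listed at only 0.481 and 0.488 FPKM, so a low value in this table need not mean a silent gene. Pooled tissue also cannot separate fewer cells of a type from less RNA per cell.

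Most potassium channel genes of the ventricle were modestly lower in HIF-PPN hearts, and a few stood far apart. Of the 97 members, 29 had a mean of at least 1 FPKM over both groups and a value above 0 in each: 24 pore-forming and 5 accessory. Among these 29, 21 were lower and 8 higher in HIF-PPN hearts. That is 72.4% lower, where 48% of all 11849 genes past the same filter were lower, and 27.6% higher, where 52% of all genes were higher. The median log2 fold change of the 29 members was −0.15, with quartiles of −0.37 and 0.0077, and that of all genes was 0.011, with quartiles of −0.16 and 0.19. At 1.5-fold or more, 4 members were lower (Kcne1, Kcnip2, Kcna1 and Kcnd2) and 1 was higher (Kcnj14), which is 13.8% and 3.45% of the members. The shares over all genes were 3.53% lower and 4.79% higher. At 2-fold or more, 3 members (10.3%) were lower and 1 (3.45%) was higher, beside 0.793% and 1.65% of all genes. Of those 4 members, Kcne1, Kcna1 and Kcnj14 had under 1 FPKM in one group, so that with at least 1 FPKM required in both groups only Kcnip2 was left at 2-fold or more. Without Kcnip2, Kcne1, Kcna1 and Kcnj14, a choice made after their values were seen, the median of the remaining 25 members was −0.13, and 18 were lower.

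**Figure D1:**
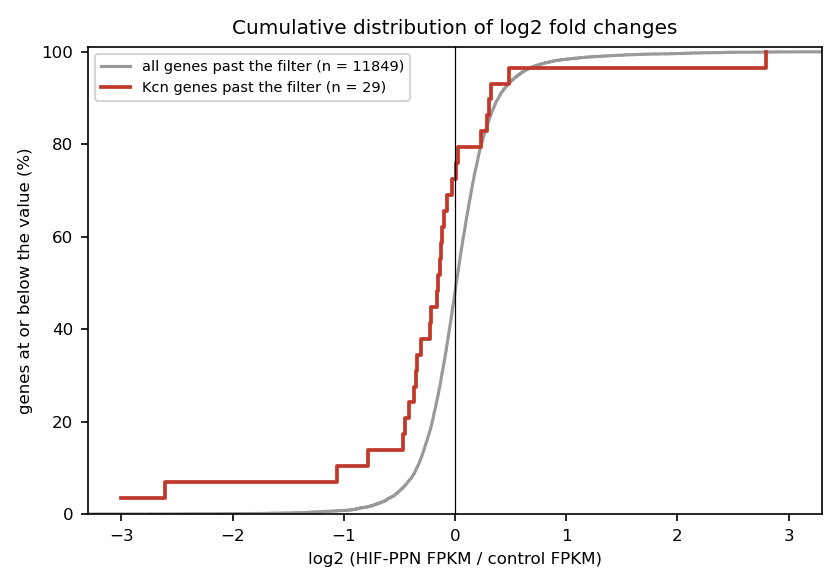
Cumulative share of genes (y axis, percent) at or below each log2 ratio of HIF-PPN to control FPKM (x axis) for the 29 Kcn genes past the filter (red steps, 1 per gene) and all 11849 genes past it (grey). The red steps lie left of the grey line between their quartiles (−0.37 to 0.0077 against −0.16 to 0.19), with single steps far out at Kcne1, Kcnip2 and Kcnj14.

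Members past the filter were more often lower than higher in every class of level, most often so among the abundant ones. Of the 9 members at a mean of 20 FPKM or more, 8 were lower, with a median of −0.31, in a class where 49.5% of 3437 genes were lower. Of the 7 members from 5 to 20 FPKM, 5 were lower (median −0.12), where 46% of 4971 genes were lower. Of the 13 members from 1 to 5 FPKM, 8 were lower (median −0.13), where 49.1% of 3441 genes were lower. Large folds were more common among weakly expressed genes of any kind: 1.71% of all genes from 1 to 5 FPKM were at least 2-fold lower and 3.89% at least 2-fold higher, against 0.378% and 0.727% at 20 FPKM or more. Kcne1, Kcna1 and Kcnj14 belong to the weak class and Kcnip2 to the abundant one.

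**Figure D2:**
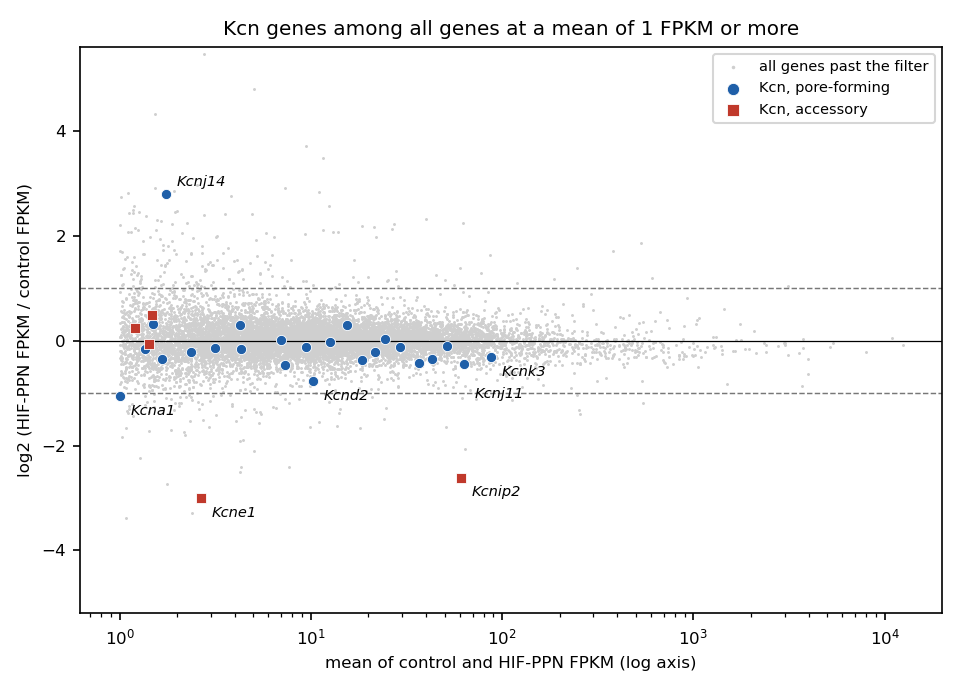
Log2 ratio of HIF-PPN to control FPKM (y axis) against the mean FPKM of both groups (x axis, log scale) for all 11849 genes past the filter (grey dots), with pore-forming Kcn genes as blue circles and accessory ones as red squares; dashed lines mark 2-fold. Kcnip2 lies below every other gene at a mean of 20 FPKM or more, while Kcne1, Kcna1 and Kcnj14 lie at means under 5 FPKM, where the grey cloud is wider.

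The largest difference in absolute level was in the genes of the fast transient outward current, the early repolarizing current of the mouse ventricle. Its pore is built from Kcnd2 and Kcnd3, and Kcnip2, the calcium-binding accessory subunit KChIP, brings these pores to the membrane and slows their inactivation. Kcnip2, on chromosome 19 from 45792346 to 45816063 of GRCm38, was the most abundant member in control hearts at 104.8 FPKM and stood at 17.1 FPKM in HIF-PPN hearts, 6.11-fold lower (log2 fold change −2.61). It had the lowest ratio of the 3437 genes at a mean of 20 FPKM or more, and the fifth lowest of all 11849 genes, and it went from rank 1 to rank 9 among the members. Kcnd2 was at 13.0 FPKM in controls and 7.57 FPKM with HIF-PPN (log2 fold change −0.78), which placed it 192nd from the lowest of all genes. Kcnd3, the other pore gene, was at 4.53 and 4.05 FPKM (−0.16). All 3 genes were lower, by unequal amounts. The FPKM of Kcnip2 was 5.98 times that of Kcnd2 plus Kcnd3 in control hearts and 1.47 times in HIF-PPN hearts, and the ratio of Kcnd2 to Kcnd3 was 2.87 and 1.87. Kcna4, which carries the slow component of Ito, was under the filter at 0.944 FPKM in controls and 0.668 FPKM with HIF-PPN.

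The promoters of these 3 genes are shown because HIF1 binds DNA with its partner ARNT at a short core, ACGTG or GCGTG, and HIF1α is what differs by design. Each window is RefSeq sequence of GRCm38.p6 from 250 bases before to 50 bases after a transcription start, written 5′ to 3′ on the strand of the gene, and capitals mark ACGTG or GCGTG on either strand (CACGT or CACGC where the core is on the other strand).
Kcnip2, chr19:45816014-45816313, minus strand: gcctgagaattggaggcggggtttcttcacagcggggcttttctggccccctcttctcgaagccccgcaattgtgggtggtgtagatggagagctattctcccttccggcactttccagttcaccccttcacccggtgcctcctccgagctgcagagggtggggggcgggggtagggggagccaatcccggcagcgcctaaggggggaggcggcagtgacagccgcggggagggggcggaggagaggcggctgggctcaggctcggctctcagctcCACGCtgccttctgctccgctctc
Kcnd2, chr6:21215096-21215395, plus strand: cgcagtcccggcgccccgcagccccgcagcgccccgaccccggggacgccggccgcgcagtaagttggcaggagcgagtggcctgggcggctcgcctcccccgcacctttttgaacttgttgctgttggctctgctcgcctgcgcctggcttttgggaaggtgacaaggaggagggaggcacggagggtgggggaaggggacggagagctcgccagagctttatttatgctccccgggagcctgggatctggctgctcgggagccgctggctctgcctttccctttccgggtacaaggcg
Kcnd3, chr3:105451640-105451939, plus strand: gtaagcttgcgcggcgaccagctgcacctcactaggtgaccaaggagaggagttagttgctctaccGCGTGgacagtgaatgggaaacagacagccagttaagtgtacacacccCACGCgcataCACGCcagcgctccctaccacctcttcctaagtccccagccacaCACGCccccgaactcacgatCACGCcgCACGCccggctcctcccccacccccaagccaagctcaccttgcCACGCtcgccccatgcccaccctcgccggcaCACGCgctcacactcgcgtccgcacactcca
The Kcnip2 window held 1 core, within the first 50 transcribed bases, the Kcnd2 window held none, and the Kcnd3 window, of the gene with the smallest difference, held 8. Over all promoters in the RefSeq table, 43.8% of 32851 windows held at least 1 core. Of the 96 windows of 71 members, 45.8% did, and of the 23 windows of the 17 members past the filter that have one, 47.8% did. The share among the members was thus near that of all genes. By single core, ACGTG stood in 17.7% of member windows and 19.6% of all windows, and GCGTG in 33.3% and 32.4%. A core in a window is a match of letters only, and binding was not measured. The members past the filter with no window in the table include Kcne1, Kcnj14 and Kcna1.

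Kcne1 had the largest fold difference of any member. It encodes the single-pass accessory subunit that slows and enlarges the current of Kcnq1, the pore of IKs. Kcne1, on chromosome 16 from 92346001 to 92359468, was at 4.74 FPKM in controls and 0.590 FPKM with HIF-PPN, 8.03-fold lower (log2 fold change −3.01), and only 2 of the 11849 genes had a lower ratio. Its HIF-PPN value lies where 1 FPKM added to both values reduces the log2 fold change to −1.85. Kcnq1 was at 20.7 FPKM in controls and 16.1 FPKM with HIF-PPN (−0.37), so the ratio of Kcne1 to Kcnq1 was 0.229 and 0.0366. Kcne4, which in expression systems inhibits Kcnq1, went the other way at low level, with 1.23 and 1.73 FPKM (0.49). Kcne2, 47.9 kb from Kcne1 on the same chromosome and an accessory subunit of Kcnh2 and Kcnq1, was listed at 0 in both groups. Thus Kcne1 and Kcnq1 were both lower, and the accessory gene by far more than the pore gene. The Kcnq1 row shares its deposited position with the antisense RNA Kcnq1ot1 (0.256 and 0.166 FPKM) and 4933417O13Rik (0.163 and 0.0848 FPKM), both low beside it.

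**Figure D3:**
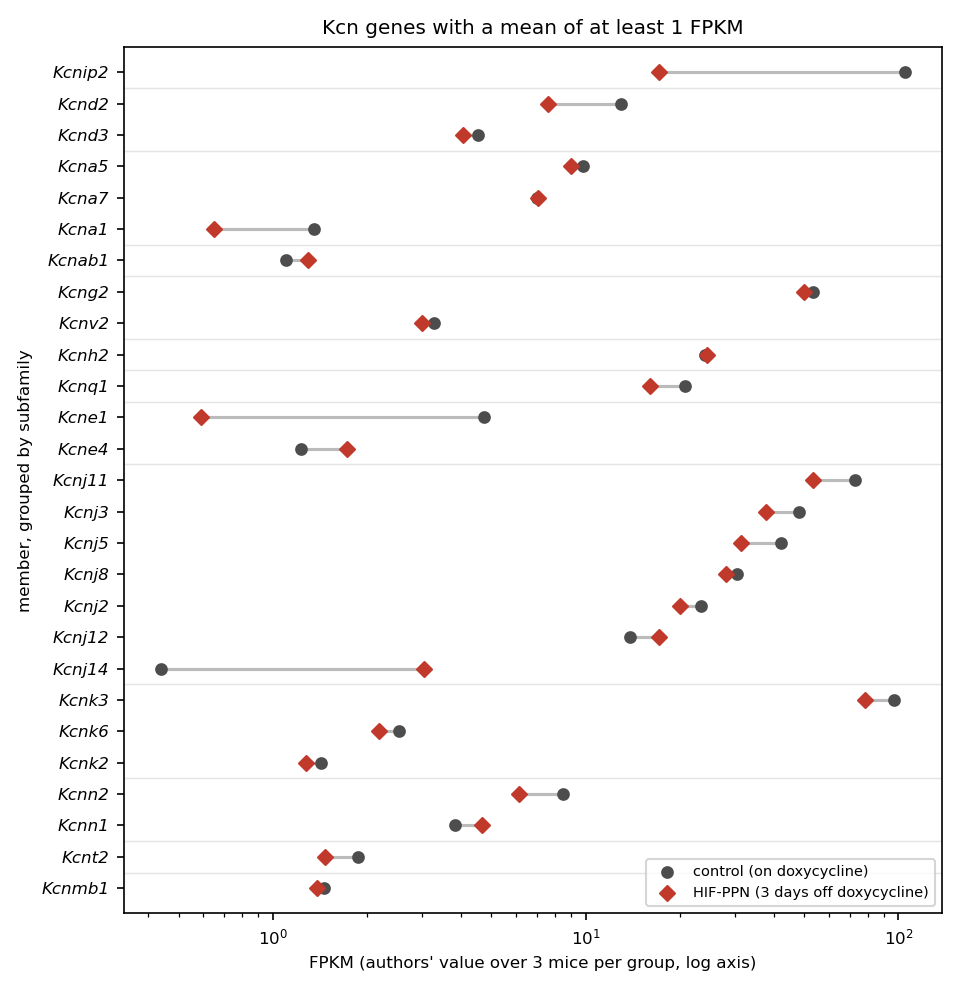
FPKM (x axis, log scale) of 27 of the 29 Kcn genes past the filter in control (grey circles) and HIF-PPN hearts (red diamonds), 1 merged value over 3 mice per group, with no error bars since none can be given; pale lines separate subfamilies. Kcnip2 (104.8 and 17.1 FPKM), Kcne1 (4.74 and 0.590 FPKM) and Kcnj14 (0.440 and 3.05 FPKM) span the widest gaps, and Kcna7 and Kcnh2 the narrowest.

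Kcna5, Kcna7 and Kcnh2, pore genes of voltage-gated channels outside IKs, were close to their control level. Kcna5, the pore of an ultrarapid current of the mouse heart, was at 9.78 and 8.98 FPKM (−0.12). Kcnh2, the pore of IKr whose mutation causes long QT syndrome in humans, was at 24.03 FPKM in controls and 24.5 FPKM with HIF-PPN (0.03), the only member of the abundant class that was not lower. Kcna7, a Kcna pore gene found in heart and skeletal muscle, was at 6.99 and 7.03 FPKM (0.01), a sign that turned to −0.0038 once ratios were centered on the median of all genes. Among the Kcna genes past the filter, Kcna1 differed most. It encodes a pore best known from axons and was at 1.35 FPKM in controls and 0.649 FPKM with HIF-PPN (−1.06), 2.08-fold lower, ranking 84th from the lowest of all genes. Its mean of 1.001 FPKM lay at the filter, with 1 FPKM added its log2 fold change was −0.51, and Kcnj15 lay just outside the filter at a mean of 0.998 FPKM. The neighboring genes on chromosome 6 did not share its ratio: Kcna5, 100.9 kb away, is given above, and Kcna6, 62.5 kb away, was at 0.415 and 0.489 FPKM. Relatives under the filter went both ways: Kcna6, given above, was higher (0.23), and Kcna4 was lower (−0.50). Kcna2 was lower too, at 1.06 FPKM in controls and 0.656 FPKM with HIF-PPN (−0.69). Its neighbor Kcna3 was at 0.166 and 0.0816 FPKM (−1.02), both near the floor. Kcnab1, the β subunit that speeds inactivation of Kcna channels, was at 1.11 and 1.30 FPKM (0.23).

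The electrically silent subunits, which form no channel alone and modify other voltage-gated pores, included one of the most abundant members. Kcng2 was at 53.3 FPKM in controls and 49.7 FPKM with HIF-PPN (−0.10), the fourth highest member in control hearts and the third in HIF-PPN hearts. Kcnv2 was at 3.28 and 2.99 FPKM (−0.13). Both ratios lay between the quartiles of all genes.

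The inward rectifiers of IK1, which set the resting potential, lay on opposite sides of their control level. Kcnj2, the main ventricular pore, was at 23.4 FPKM in controls and 20.1 FPKM with HIF-PPN (−0.22). Kcnj12, its partner in mixed channels, was at 13.8 and 17.1 FPKM (0.31). Their ratio was 1.69 and 1.17, and the sum with Kcnj4 (0.234 and 0.303 FPKM) was 37.50 and 37.48 FPKM. Kcnj14, the remaining gene of this subgroup, known in rats from brainstem motor neurons, had the highest log2 fold change of any member, with 0.440 FPKM in controls and 3.05 FPKM with HIF-PPN, 6.94-fold higher (2.80). It lies on chromosome 7 from 45816467 to 45824747 and overlaps no other row. It ranked 12th from the highest of all 11849 genes and went from rank 40 to rank 19 among the members, yet remained below both Kcnj2 and Kcnj12. With 1 FPKM added to both values its log2 fold change was 1.49. With Kcnj14 included, the sum of the 4 genes was 37.9 and 40.5 FPKM. Among the members it had the highest ratio and Kcne1 the lowest, and both were weakly expressed in one of the groups.

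The promoter of Kcnj2 is shown because it holds a palindrome, CACGTG, that reads ACGTG on both strands and is the E-box bound by the clock factors CLOCK and ARNTL as well as by MYC.
Kcnj2, chr11:111065914-111066213, plus strand: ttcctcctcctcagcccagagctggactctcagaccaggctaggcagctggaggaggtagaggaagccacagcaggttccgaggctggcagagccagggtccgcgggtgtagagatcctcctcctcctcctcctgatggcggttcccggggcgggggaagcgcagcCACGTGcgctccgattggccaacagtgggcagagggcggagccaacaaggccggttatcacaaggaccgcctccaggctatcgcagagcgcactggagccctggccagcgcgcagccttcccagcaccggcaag
The palindrome, in capitals, lies 84 bases before the start. Past the filter, the same 6 letters stood in 1 window of Kcne4 (log2 fold change 0.49) and 2 windows of Kcnab1 (0.23), beside that of Kcnj2 (−0.22). CACGTG stood in 17.4% of the 23 windows of members past the filter, which is 4 windows, in 7.29% of all 96 member windows and in 7.15% of all windows, and it overlaps the ACGTG count by construction.

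The ATP-sensitive channel and the acetylcholine-activated channel were lower in each of their pore genes. Kcnj11, the pore of the sarcolemmal ATP-sensitive channel of ventricular myocytes, was at 72.8 FPKM in controls and 53.2 FPKM with HIF-PPN (−0.45), the second largest difference in FPKM after Kcnip2. Kcnj8, the pore of the vascular form, was at 30.5 and 28.1 FPKM (−0.12). Abcc9, which encodes the sulfonylurea receptor SUR of these channels in heart and vessels and is not a Kcn gene, was at 91.4 and 63.8 FPKM (−0.52). The ratio of Kcnj11 to Abcc9 was 0.796 in control and 0.833 in HIF-PPN hearts, so these levels differed by nearly the same factor, and that of Kcnj8 to Abcc9 was 0.333 and 0.441. Abcc8, the receptor gene known from pancreatic β cells and atria, was at 11.3 and 11.4 FPKM (0.01). Its deposited position lies 3.76 kb from that of Kcnj11. Kcnj3 and Kcnj5, which together form the channel that acetylcholine opens in atria and nodes, were at 48.0 and 37.8 FPKM (−0.34) and at 42.0 and 31.4 FPKM (−0.42). Their ratio was 1.14 in control and 1.204 in HIF-PPN hearts.

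Markers of atrial and nodal cells were lower alongside these genes. Of 5 atrial markers 4 were lower, where 48% of all genes were, with a summed level of 2608 FPKM in controls and 1894 FPKM with HIF-PPN and a median log2 fold change of −0.34. Of 7 nodal and conduction markers 4 passed the filter and 3 of them were lower, with a summed level of all 7 of 19.1 and 12.8 FPKM. The defining nodal marker Hcn4 was at 6.49 and 2.59 FPKM and Isl1 was near 0 at 0.0236 and 0.0278 FPKM. Ventricular markers differed less by their median of −0.12, with 8 of 8 lower and a summed level of 36622 and 33794 FPKM. Their log2 fold changes ran from −0.74 (Ryr2) to −0.039, and those of the atrial markers from −0.72 (Sln) to 0.12. The part of atrial or nodal tissue in the values of Kcnj3, Kcnj5, Kcna5 and Kcne1, all of which such tissue expresses, was not tested.

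Leak and calcium-activated channels past the filter were mostly lower by small amounts. Those listed under it lay at 0.622 FPKM or less, near the floor. Their directions are given without a share over all genes, so no trend is read from them. Kcnk3, the acid-sensitive leak channel known as TASK, was the second most abundant member at 96.8 FPKM in control hearts and the most abundant at 78.2 FPKM in HIF-PPN hearts (−0.31). Its row overlaps that of Gm9899, at 6.17 and 5.75 FPKM. Kcnk6 was at 2.53 and 2.18 FPKM (−0.21), and Kcnk2, the stretch-activated channel TREK, at 1.42 and 1.28 FPKM (−0.15). All 3 leak channels past the filter were lower, where 48% of all genes were. The 3 others on the list were under the filter and higher, Kcnk1 at 0.104 and 0.159 FPKM, Kcnk5 at 0.331 and 0.370 FPKM and Kcnk13 at 0.305 and 0.392 FPKM. Kcnn2, the small-conductance calcium-activated pore of the heart, was at 8.48 FPKM in controls and 6.12 FPKM with HIF-PPN (−0.47), whereas Kcnn1, its relative, was at 3.82 and 4.68 FPKM (0.29). Kcnn3 was at 0.622 and 0.433 FPKM and Kcnn4 at 0.197 and 0.309 FPKM, both under the filter. Kcnt2, a sodium-activated pore, was at 1.87 and 1.47 FPKM (−0.35). Kcnmb1, the β subunit of the large-conductance channel in smooth muscle, was at 1.46 and 1.39 FPKM (−0.07), whereas Kcnma1, its pore, was at 0.0833 and 0.195 FPKM, Kcnmb4 at 0.0991 and 0.201 FPKM, and Kcnmb2 was listed at 0. Of these 8 calcium-activated channel genes, 3 passed the filter, 2 lower and 1 higher. Of the others, Kcnn3 was lower and Kcnn4, Kcnma1 and Kcnmb4 were higher. Kcnmb1 shares its deposited position with Kcnip1, which stood at 0.159 FPKM in controls and 0.520 FPKM with HIF-PPN.

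The other 68 members were under the filter and summed to 13.4 FPKM in controls and 13.8 FPKM with HIF-PPN. Of these, 16 were listed at 0 in both groups and 11 in only 1 group, with no value above 0.0868 FPKM among the 11. The remaining 41 were split almost evenly, 19 lower and 22 higher. The share over all genes under the filter is not given, while 48.7% of all 15536 genes above 0 in both groups were lower. Apart from the genes named above, the members under the filter include every Kcnc gene and the other Kcnh and Kcnip genes, many of them best known from brain. The antisense RNA Kcnd3os was at 0.371 and 0.598 FPKM at the position of Kcnd3. In all, 16 members overlap another row, 7 of them past the filter, and without those 7 the median of the remaining 22 was −0.13.

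Added together, the members came to 623.6 FPKM in controls and 456.4 FPKM with HIF-PPN, a sum 26.8% lower. Kcnip2 alone made up 52.4% of that difference, and without it the sum of the other 96 members was 518.8 and 439.2 FPKM, 15.3% lower. The split by role was uneven. Accessory subunits summed to 116.9 and 25.9 FPKM, 77.8% lower, and without Kcnip2 to 12.1 and 8.80 FPKM, 27.5% lower. That remaining difference was −3.34 FPKM, while Kcne1 alone differed by −4.15 FPKM. Of the other accessory genes past the filter, Kcne4 (0.49) and Kcnab1 (0.23) were higher and Kcnmb1 was slightly lower (−0.07). The accessory sum thus reflects Kcnip2 and Kcne1 and not accessory genes in general. Pore-forming subunits summed to 505.3 and 429.2 FPKM, 15.1% lower. By subfamily, the Kcnj genes summed to 232.6 FPKM in controls and 192.4 FPKM with HIF-PPN, the Kcnk genes to 101.5 and 82.6 FPKM, the Kcnd genes to 17.8 and 11.9 FPKM, and the Kcnh genes to 24.2 and 24.6 FPKM. The 5 most abundant members of control hearts, Kcnip2, Kcnk3, Kcnj11, Kcng2 and Kcnj3, made up 60.2% of the control sum. A group's sum is thus set largely by a few genes.

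**Figure D4:**
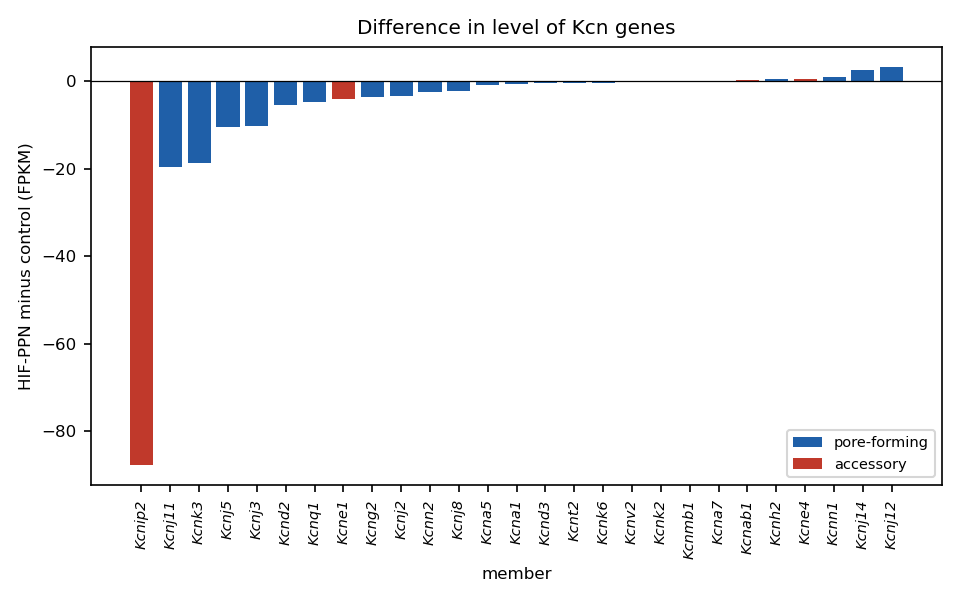
Difference in level, HIF-PPN minus control (y axis, FPKM, linear from 0), of 27 of the 29 Kcn genes past the filter (x axis, ordered by the difference), with pore-forming subunits in blue and accessory ones in red. Kcnip2 (104.8 to 17.1 FPKM) outweighs every other bar, Kcnj11 and Kcnk3 follow, and the bars above 0 on the right are all short.

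Genes that work with these channels but are not named Kcn lay on both sides of their control level. Of 17 partners, 13 passed the filter, 6 lower and 7 higher, with a median of 0.013, where 48% of all genes were lower with a median of 0.011. The scaffold gene Dlg1 (32.5 and 35.2 FPKM) and the adhesion gene Amigo1 (8.84 and 8.82 FPKM), were near their control levels, and Tmem38a, a cation channel of the sarcoplasmic reticulum that supports calcium release, was at 326.3 and 263.4 FPKM (−0.31). Lrrc55, known in expression systems as an accessory subunit of the large-conductance channel, was at 0.810 and 1.73 FPKM (1.10). Dpp6, an accessory subunit of Kcnd pores in neurons, was under the filter at 0.0459 FPKM in controls and 0.704 FPKM with HIF-PPN, higher where Kcnip2 was lower and far below it in level.

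Of 13 transcription factors known to act on cardiac potassium channel genes, all passed the filter, with 9 lower and 4 higher and a median of −0.25, beside 48% lower and a median of 0.011 over all genes. Arntl, the clock factor, was at 7.30 FPKM in controls and 1.37 FPKM with HIF-PPN (−2.41), and Clock, its partner, at 17.5 and 11.5 FPKM (−0.60). Klf15, known in mice as a rhythmic activator of Kcnip2, was at 25.6 and 21.2 FPKM (−0.27). Irx5, known in mice as a repressor of Kcnd2, was at 3.99 and 4.68 FPKM (0.23) and its relative Irx3 at 12.2 and 10.5 FPKM (−0.22). Thra, the thyroid hormone receptor, was at 50.3 and 36.5 FPKM (−0.46), Nkx2-5 at 40.4 and 31.7 FPKM (−0.35) and Hey2 at 3.85 and 2.73 FPKM (−0.50). The hour at which hearts were collected is not given in the sources used here, and the part of the clock genes in the members' values was not tested.

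**Figure D5:**
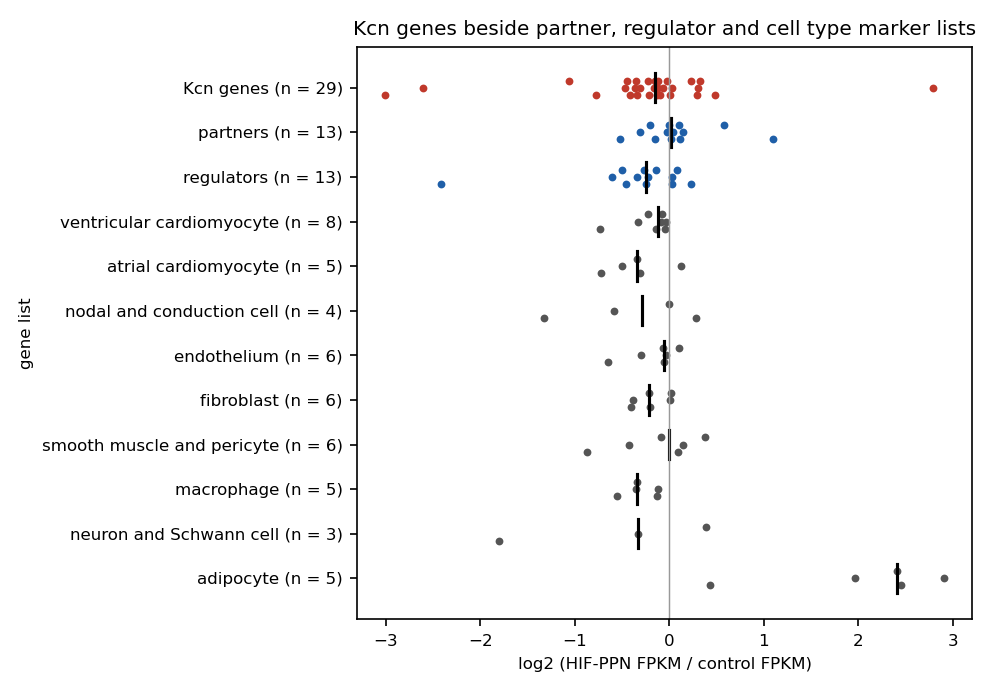
Log2 ratio of HIF-PPN to control FPKM (x axis) of every gene past the filter in the Kcn genes (red), the partner and regulator lists (blue) and the cell type marker lists with at least 3 genes past the filter (grey), 1 dot per gene, with a black bar at each list's median. The Kcn bar stands at −0.15 and the partner bar at 0.013; adipocyte markers stand farthest right (median 2.41).

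Markers of other cells in the tissue differed as well, and their counts are read beside the 48% of all genes that were lower and the 52% that were higher. Adipocyte markers were higher, 5 of 5 past the filter, with a summed level of 921.4 FPKM in controls and 1263 FPKM with HIF-PPN. Nearly all of that sum was Fabp4, at 916.2 and 1233 FPKM, while Adipoq was at 1.55 and 8.24 FPKM and Ucp1 at 1.72 and 12.9 FPKM. Macrophage markers were lower in 5 of 5 (summed level 146.1 and 120.5 FPKM), fibroblast markers in 4 of 6 (737.2 and 636.0 FPKM), endothelial markers in 5 of 6 (343.0 and 326.6 FPKM), and smooth muscle and pericyte markers in 3 of 6 (435.4 and 330.5 FPKM). Of the neuron and Schwann cell markers 3 passed the filter and 2 were lower (7.58 and 5.93 FPKM). Lymphocyte markers were all under the filter, and of the skeletal muscle markers only Ckm passed, while Myh4 was listed at 0. The part of these cells in the members' values, those of Kcnj14, Kcnj8 and Kcnmb1 included, was not tested.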

How the data were processed

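RNA of heart ventricles from 3 control and 3 HIF-PPN mice was enriched for poly A and sequenced in pairs on Illumina. After adaptor trimming by the authors, Tophat with Bowtie served for mapping, Cufflinks for quantitation and Cuffdiff for the comparison. Their methods name a first run on an earlier NCBI mouse build and a later one on mm10. The deposited FPKM values hold 1 value per gene and group, already merged over mice, so that depth, counting error and spread between mice are unknown. A column of the authors' log2 fold changes was not used. Positions match GRCm38 and are given 1-based.

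Log2 of HIF-PPN over control FPKM was computed for 23792 gene rows with Python 3.11.15, pandas 2.3.3 and numpy 2.4.6, figures were drawn with matplotlib 3.10.9, and the code was tested on simulated data. For a repeated symbol, the row with the highest mean was kept. Genes needed a mean of at least 1 FPKM over both groups, and 15 of 11864 such genes were left out because 1 group was at 0. No pseudocount was added. With 1 value per group no test was run, and shares over all genes are given beside the counts of members and lists. Under other filters those shares are given for 2-fold and not for 1.5-fold differences. Members past the filter were named, apart from 2 that are counted but not reported here by name, as were those under it if at 1 FPKM in a group, 2-fold different with 0.5 FPKM in a group, or on a current list, and genes whose position overlaps a named member were named too. Kcna3 and Kcna6 fall outside this rule and were named as neighbors after their values were seen. The members, the 12 lists of channel genes, partners and regulators and the 11 marker lists were chosen with earlier results of these data known. Promoters came from RefSeq (GRCm38.p6), with 71 of 97 members matched by symbol. Alternatives were other filters, pseudocounts of 0.1 and 1 FPKM, centering on the median of all genes, summed rows, pore-forming subunits alone, and members that overlap no other row.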

Additional observations from a re-analysis of the deposited data

How the results depend on the processing

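With 1 value per group, leaving out a mouse was not run, no test was made and counting error is unknown. No paired analysis was possible because the deposited values were already merged over the mice of each group. 

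The lean to lower values was present under every filter tried, and the counts of large differences were not stable. With a mean of at least 0.5 FPKM the median log2 fold change was −0.14. With at least 5 FPKM, 13 members were lower and 3 higher, 2 and 0 of them by 1.5-fold and 1 and 0 by 2-fold, with a median of −0.27. Of all genes past that filter 47.5% were lower, and 0.416% were lower and 0.737% higher by 2-fold. With 1 FPKM required in both groups, 2 were lower and 0 higher by 1.5-fold, 1 and 0 by 2-fold, and the median was −0.14. There 0.595% of all genes were lower and 1.01% higher by 2-fold. With no filter, 40 of 70 members were lower and 30 higher, 12 and 12 by 1.5-fold and 7 and 7 by 2-fold, with a median of −0.084. Then 57.1% of members were lower against 48.7% of all genes, of which 3.75% were lower and 5.3% higher by 2-fold. The median was −0.14 with 0.1 FPKM added and −0.11 with 1 FPKM added, where the log2 change in the ratio of Kcnip2 to Kcnd2 plus Kcnd3 was −2.03 in place of −2.02. Centered on the median of all genes, the median was −0.16 and Kcna7 turned to −0.0038. Among pore-forming subunits alone, 2 were lower by 1.5-fold and 1 by 2-fold, with a median of −0.16, where 0.793% of all genes were lower by 2-fold. Without members that overlap another row the median was −0.13. Without Kcnip2, Kcne1, Kcna1 and Kcnj14, chosen after seeing the data, 1 was lower and 0 higher by 1.5-fold, 0 and 0 by 2-fold, and the median was −0.13. Adding the same value to both groups cannot change a sign, so those settings say nothing about direction. Centering shifted every ratio by only 0.011, so it could turn only members very close to 0, and Kcna7 was the one that did.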
